A study of Homo sapiens with 12 samples.

Results

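The 10 genes described here belong to the remodelling of membrane phospholipids and to lysosomal phospholipase families: 4 are phospholipases or relatives of phospholipases (PLA2G15, PLBD2, PLD3 and PRDX6), and 6 put fatty acids back on lysophospholipids (LPCAT1, LPCAT2, LPCAT4, MBOAT1, MBOAT2 and MBOAT7). They were chosen by gene symbol from the 57152 genes that had values, and all 10 were found and were among the 13968 genes tested. RNA was sequenced from 12 libraries in 4 groups of 3. A549 cells, a human lung adenocarcinoma line, received 0.1% DMSO as vehicle for 24 h (A549 DMSO). LB cells, for which the labels give A549 as the source material, received the same vehicle (LB DMSO), or 10 µM amiodarone for 24 h (LB amiodarone), or 10 µM amiodarone for 24 h after seeding with 10 mg/ml hydroxypropyl-beta-cyclodextrin, HPbCD, from 24 h before the drug (LB amiodarone plus HPbCD). The labels do not say how LB cells were derived. No DMSO content is listed for the groups with amiodarone, so a match to the vehicle groups is not known. A549 cells with amiodarone and LB cells with HPbCD alone were not analysed here, so HPbCD was seen only together with the drug. The labels do not say whether replicates came from separate cultures, and the p-values therefore reflect the spread among these libraries, which may be technical.

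In phospholipids built on glycerol, the head group sits on an outer carbon, and the middle carbon and the other outer carbon carry fatty acids. Phospholipases cut these off, leaving lysophospholipids, and acyltransferases of the LPCAT and MBOAT families add new ones, a cycle of deacylation and reacylation that sets how saturated a membrane is. In alveolar type II cells the cycle also makes dipalmitoyl phosphatidylcholine, the main lipid of surfactant, a step for which LPCAT1 is known. PLA2G15 is the lysosomal phospholipase A2 that cationic amphiphilic drugs such as amiodarone are known to inhibit, and its loss of activity is one route to the lamellar lipid deposits of drug-induced phospholipidosis. HPbCD is a ring of sugars that binds cholesterol.

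The start regions of the genes are shown first because 2 of the lysosomal members share a motif there. RefSeq windows on GRCh38.p14, from 250 bases before to 50 after the start site, were at hand for 7 of the 10 genes, in 8 windows. PRDX6, LPCAT2 and MBOAT1 had none. The motif TCACGTGA, the core of the CLEAR element bound by lysosomal transcription factors, reads the same on both strands and contains the shorter E-box CACGTG. It was in 0.98% of all 35116 windows of that length, and CACGTG was in 7.26%. PLBD2 held 1 copy, ending the stretch at chr12:113358337-113358569, and PLD3 held 2, in 30-base stretches at chr19:40348503-40348532 and chr19:40348548-40348577, all on the plus strand. The motif is in capitals.
PLBD2: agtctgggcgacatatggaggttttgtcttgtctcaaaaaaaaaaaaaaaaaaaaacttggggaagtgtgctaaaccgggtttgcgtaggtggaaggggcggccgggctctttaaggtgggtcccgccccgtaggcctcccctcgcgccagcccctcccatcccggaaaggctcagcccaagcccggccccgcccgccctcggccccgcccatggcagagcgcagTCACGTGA
PLD3, first copy: ggccataaccaTCACGTGAccgcccaccga
PLD3, second copy: agtcgtaaccgTCACGTGAccgcccaccgt

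The PLBD2 copy began 25 bases before the RefSeq start, and 4 of its 8 bases lay in an exon annotated by GENCODE 29. The PLD3 copies began 181 and 136 bases before the RefSeq start, with all 8 bases of each inside an annotated first exon that begins further upstream. The stretches around them lay 45 bases apart and were identical at 25 of 30 positions. PLA2G15 and LPCAT1 are shown beside them because the results turn on these genes as well. Neither TCACGTGA nor CACGTG was in their windows, nor was TGATGCAAT (amino acid response element, in 0.236% of windows) or the sterol response element of the LDL receptor promoter (in 0.0456%), each searched on both strands and matched in none of the 8 windows. The stretches before the annotated gene starts are chr16:68245123-68245303 on the plus strand for PLA2G15 and chr5:1523978-1524210 on the minus strand for LPCAT1.
PLA2G15: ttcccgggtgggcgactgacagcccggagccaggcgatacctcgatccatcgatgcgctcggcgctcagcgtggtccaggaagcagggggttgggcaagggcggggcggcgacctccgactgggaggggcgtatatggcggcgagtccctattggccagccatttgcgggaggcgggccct
LPCAT1: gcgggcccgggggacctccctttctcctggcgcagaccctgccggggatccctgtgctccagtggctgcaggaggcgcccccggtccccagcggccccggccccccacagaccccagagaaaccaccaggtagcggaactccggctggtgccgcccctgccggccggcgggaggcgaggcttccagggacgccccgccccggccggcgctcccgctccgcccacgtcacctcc

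Levels are in TPM, a share of all transcripts that allows for transcript length, so different genes can be compared. The values summed to between 999449 and 999632 in each library. They do not retain the number of reads, and depth is therefore unknown. Mitochondrially encoded transcripts, a sign of RNA quality, took 6.27 to 9.19% of TPM in A549 DMSO, 6.73 to 8.41% in LB DMSO, 5.61 to 8.49% with amiodarone and 5.38 to 6.73% with HPbCD added. Every library with both agents was thus at or below every LB DMSO library. Of 5 alveolar type II markers, 4 were above 1 TPM in every LB library and 2 in every A549 library. They summed to 22.0 to 22.3 TPM in A549 DMSO, where SFTPB was listed at 0, and to 923 TPM or more in each LB library, and LAMP3 was at most 0.57 TPM in any. All 5 epithelial markers were above 1 TPM in every library, and their sum was lower in LB cells, at 7250 to 7790 TPM in A549 DMSO, 2890 to 3220 in LB DMSO, 2750 to 3130 with amiodarone and 2560 to 2960 with HPbCD added. Markers of leukocytes summed to 15.6 to 16.4 TPM in A549 DMSO, 28.1 to 30 in LB DMSO, 33.6 to 40.6 with amiodarone and 82.2 to 86.6 with HPbCD added, mostly from CD68, which is also a lysosomal membrane gene. AIF1 and MARCO were listed at 0 throughout and PTPRC at no more than 0.01 TPM. Fibroblast markers summed to 3.77 to 6.11, 11.3 to 11.7, 10.8 to 16.2 and 6.54 to 7.41 TPM in the same order, and endothelial ones to at most 0.89. The part of these markers and of the mitochondrial share in the results was not tested.

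Differences are on the log2(TPM + 1) scale with their standard errors (SE), which understates changes of genes at a few TPM. Adjusted p-values are from limma with Benjamini-Hochberg adjustment over all 13968 genes, and a gene passed when its value was under 0.05. Between LB DMSO and A549 DMSO, 4 of the 10 genes were higher (PLBD2, PLD3, PRDX6 and LPCAT2), 2 were lower (MBOAT1 and MBOAT2) and 4 did not pass. Of all genes tested, 32.4% passed in that comparison, 14.2% as higher and 18.2% as lower. The groups did not overlap for the same 6 members, beside 43.7% of all genes. With amiodarone, LPCAT1 alone passed, as a rise. Over all genes 8.62% passed, 4.9% upward and 3.72% downward. The groups did not overlap for 3 members (LPCAT1 and PLBD2 higher, PRDX6 lower), beside 30% of all genes. With HPbCD added to amiodarone it was again LPCAT1 alone, against 4.07% of all genes, 2.71% upward and 1.36% downward. The groups did not overlap for LPCAT1, which was higher, and for PRDX6 and LPCAT2, which were lower, beside 25.1% of all genes. Against vehicle, the cells with both agents had LPCAT1 and PLBD2 higher and PRDX6 and LPCAT4 lower, where 17.9% of all genes passed, 10.1% higher and 7.81% lower. Those 4 members were also the ones whose groups did not overlap, beside 39.1% of all genes, 19% higher and 20.1% lower. No member was lower by limma in either of the middle comparisons. At an unadjusted p under 0.05 there were 3 members in each, namely LPCAT1, PLBD2 and PRDX6 (PRDX6 lower) with amiodarone, and LPCAT1, LPCAT2 and LPCAT4 (the last pair lower) with HPbCD added. The median difference of the 10 genes was 0.12, 0.04, -0.04 and -0.07 in the 4 comparisons in that order, beside -0.04, 0.00, -0.01 and -0.02 over all genes.

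**Figure D1:**
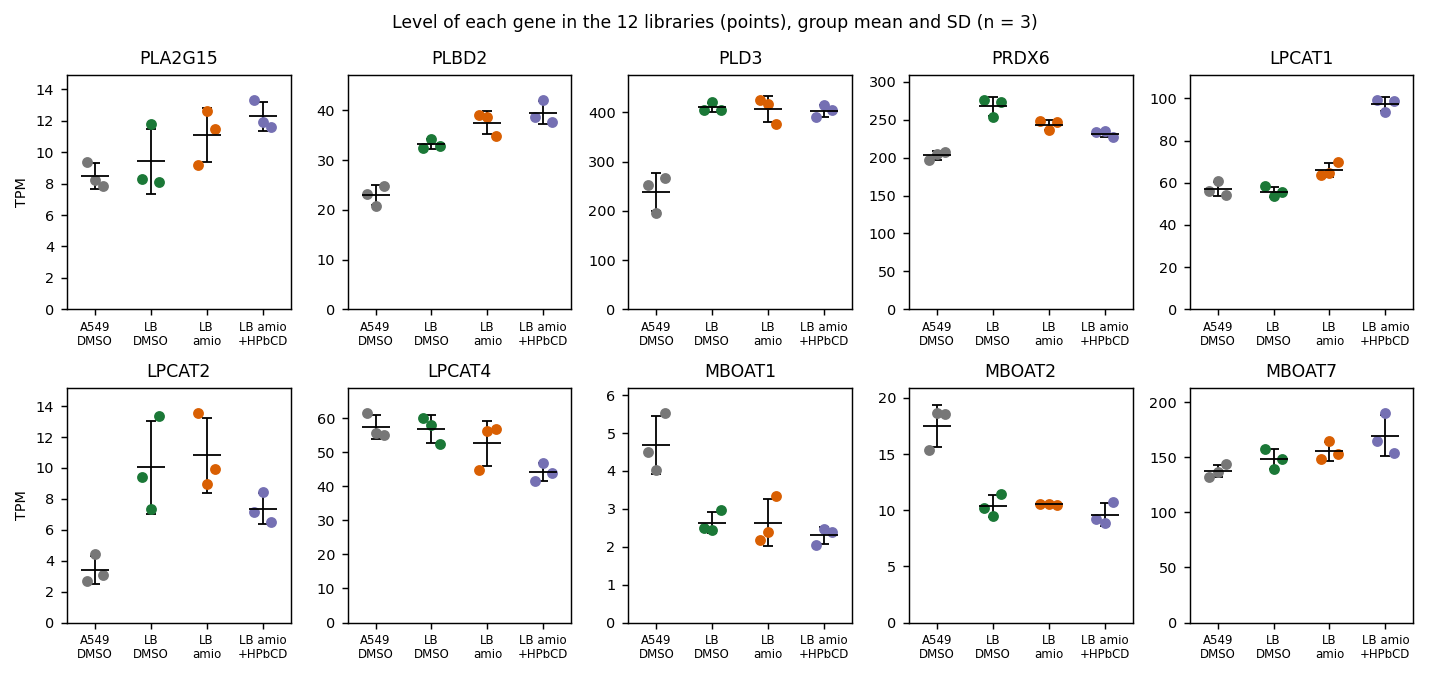
TPM of the 10 genes (vertical axes, each from 0) in the 12 libraries, with points for libraries, a horizontal bar for the group mean and whiskers for the SD of 3 libraries; amio stands for amiodarone. LPCAT1 sits between 93.65 and 99.43 TPM in the 3 libraries with amiodarone plus HPbCD and at no more than 70.06 TPM in the other 9.

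PLA2G15 (chromosome 16, 68245304 to 68261062, plus strand), the lysosomal phospholipase A2 of the drug's known action, had the lowest mean level of the first 4 genes, at the 40.4th percentile of mean level over the tested genes. It read 9.39, 8.22 and 7.82 TPM in A549 DMSO and 8.32, 11.83 and 8.12 TPM in LB DMSO. It read 9.19, 12.61 and 11.47 TPM with amiodarone, and 13.35, 11.9 and 11.61 TPM with HPbCD added. Replicate 2 of LB DMSO stood above its fellows and inside the range of the drug-treated libraries. Neighbouring groups overlapped throughout. The means were 8.48 ± 0.816 (SD, n = 3), 9.42 ± 2.09, 11.1 ± 1.74 and 12.3 ± 0.932 TPM in that order, and no comparison passed. The difference between LB and A549 was 0.12 (95% interval -0.19 to 0.43, adjusted p = 0.552). With amiodarone it was 0.22 (-0.09 to 0.53, adjusted p = 0.391), and for HPbCD added it was 0.14 (-0.17 to 0.45, adjusted p = 0.662). Between amiodarone plus HPbCD and vehicle it was 0.37 (0.06 to 0.68, adjusted p = 0.0975), and without LB DMSO replicate 2 it was 0.52 and passed (adjusted p = 0.0213).

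Among 9791 protein-coding genes that averaged 5 TPM or more, those with the pattern most like PLA2G15 over the 12 libraries included FN3K (Pearson r = 0.903) and MSI2 (0.892). Over the 9 LB libraries they were GADD45A (0.974), MFSD6 (0.943) and NABP1 (0.929), neither FN3K nor MSI2 being among them. GADD45A lay at 22.7 ± 3.14 TPM in LB DMSO and 26.2 ± 1.62 with both agents. These are the highest of many values, over points that share a library preparation, and are given as a description.

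PLBD2 (chromosome 12, 113358566 to 113391625, plus strand), a lysosomal protein of the phospholipase B-like family, read 23.28, 20.87 and 24.74 TPM in A549 DMSO and 32.38, 34.34 and 32.93 TPM in LB DMSO. Every LB DMSO library was above every A549 one (log2 difference 0.52 ± 0.073 SE, 1.43-fold, adjusted p = 0.000174). With amiodarone it read 39, 38.72 and 34.93 TPM, each above LB DMSO, yet the difference of 0.17 ± 0.073 did not pass (adjusted p = 0.185). With HPbCD added it read 38.73, 42.17 and 37.73 TPM, overlapping amiodarone alone (0.07, 95% interval -0.09 to 0.23, adjusted p = 0.67). Against LB DMSO these cells were higher by 0.24 ± 0.073, 1.18-fold (adjusted p = 0.0376). That call was lost when any 1 of the 6 libraries compared was left out. The adjusted p was then 0.113, 0.0597 and 0.0968 without LB DMSO replicate 1, 2 and 3, and 0.0771, 0.128 and 0.0523 without replicate 1, 2 and 3 of amiodarone plus HPbCD. Its 5′ end overlaps SLC8B1 on the opposite strand, which lay between 5.71 and 10.1 TPM, and the libraries were stranded per the labels' protocols.

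PLD3 (chromosome 19, 40348456 to 40380439, plus strand, its 5′ end overlapping C19orf47 on the opposite strand), a lysosomal member of the phospholipase D family known for cutting single-stranded nucleic acids, was the most abundant of the 10 genes, at the 97.4th percentile. It read 252.72, 195.31 and 267.62 TPM in A549 DMSO and 405.51, 420.96 and 405.02 TPM in LB DMSO. The groups did not overlap (log2 difference 0.79 ± 0.093 SE, 1.73-fold, adjusted p = 3.75e-05). Within LB cells the groups overlapped, at 426.02, 416.87 and 376.15 TPM with amiodarone and 390.51, 414.25 and 404.22 TPM with HPbCD added. The 95% interval for amiodarone was -0.22 to 0.19, that for HPbCD added was -0.21 to 0.19, and that for both agents against vehicle was -0.23 to 0.18. Adjusted p-values were 0.945, 0.971 and 0.881.

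The motif TCACGTGA was also counted over all genes. Of 229 tested genes with it in a window, 41 (17.9%) were higher and 38 (16.6%) lower in LB DMSO than in A549 DMSO, beside 14.7% and 19.7% of the 9885 tested genes with a window. With amiodarone 31 (13.5%) were higher and 6 (2.62%) lower, beside 5.11% and 4.15%. PLBD2 and PLD3 were not among those that passed there. With HPbCD added to the drug 3 (1.31%) were higher and 1 (0.437%) lower, beside 2.82% and 1.4%. With both agents against vehicle 53 (23.1%) were higher and 9 (3.93%) lower, beside 10.9% and 8.3%. These shares are descriptions, with no test.

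PRDX6 (chromosome 1, 173477266 to 173488807, plus strand) is a peroxiredoxin that also has an acidic phospholipase A2 activity, and in lung it is known from lamellar bodies. It read 196.53, 205.33 and 207.92 TPM in A549 DMSO and 276.61, 253.91 and 273.45 TPM in LB DMSO, a rise without overlap (log2 difference 0.4 ± 0.044 SE, 1.32-fold, adjusted p = 2.36e-05). With amiodarone it read 248.06, 236.25 and 246.93 TPM, and with HPbCD added 233.29, 235.28 and 227 TPM. Each LB group lay wholly below the one before it. The step to amiodarone was -0.14 ± 0.044 and did not pass (adjusted p = 0.0798), but did without LB DMSO replicate 2 (-0.17, adjusted p = 0.0473). The step to HPbCD was -0.07 (95% interval -0.17 to 0.02, adjusted p = 0.436). Across both steps PRDX6 fell by 0.21 ± 0.044 on the log2 scale (adjusted p = 0.00638), from 268 ± 12.3 to 232 ± 4.32 TPM, which was still above every A549 library.

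The other peroxiredoxins and partners of PRDX6 moved in both directions. Of the 6 tested, 3 were higher and 2 lower in LB DMSO than in A549 DMSO. Of all genes tested, 14.2% were higher there and 18.2% lower. Only 1 of the 6 was lower without A549 DMSO replicate 3, LB DMSO replicate 1 or LB DMSO replicate 2. GPX4, which reduces phospholipid hydroperoxides, was higher in LB cells at 522 ± 2.23 against 348 ± 24.1 TPM (SD, n = 3, adjusted p = 3.44e-06). PRDX4, the peroxiredoxin of the endoplasmic reticulum, was higher at 314 ± 7.01 against 256 ± 15.3 TPM. With amiodarone 1 of the 6 was higher, PRDX5, beside 4.9% of all genes tested. This count was 0 without LB DMSO replicate 3 or LB amiodarone replicate 1. With HPbCD added to the drug limma called 0, beside 4.07% of all genes tested, and 1 was lower at an unadjusted p under 0.05. With both agents against vehicle PRDX5, found in mitochondria and peroxisomes, was again the 1 that passed, beside 17.9% of all genes tested. It lay at 474 ± 9.93 against 376 ± 15.9 TPM (adjusted p = 0.00143), while PRDX6 fell.

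Among lysosomal partners of the first 3 genes (other lipid hydrolases, their activators and lipid exporters), 11 of 12 were tested and limma called none lower in any comparison. In LB DMSO against A549 DMSO 7 rose, with a median of 0.38, beside 14.2% of all genes tested that were higher. PLBD1, the relative of PLBD2, went from 2.3 ± 0.454 to 5.69 ± 0.292 TPM (adjusted p = 4.21e-05). With amiodarone 7 rose, with a median of 0.3, beside 4.9% of all genes tested that were higher. With each library left out in turn this count was 5 to 7, and 5 without LB DMSO replicate 1 or LB amiodarone replicate 2. ASAH1, the acid ceramidase, went from 105 ± 6.69 to 190 ± 2.92 TPM (adjusted p = 9.75e-07), and LIPA, the acid lipase for cholesteryl esters and triglycerides, from 61.5 ± 2.87 to 111 ± 6.06 TPM (adjusted p = 5.55e-06). SPNS1, a lysosomal exporter of lysophospholipids named after its values were seen, went from 49.3 ± 1.13 to 60.7 ± 2.39 TPM (adjusted p = 0.00904). PLA2G15, PLBD2 and PLD3 did not pass in that comparison. With HPbCD added ASAH1 alone rose, to 246 ± 8.44 TPM (adjusted p = 0.00233), beside 2.71% of all genes tested that were higher. There 1 gene, LIPA, was lower at an unadjusted p under 0.05, at 97.4 against 111 TPM without overlap (adjusted p = 0.149). No other was lower at that level in the 4 comparisons. With both agents against vehicle 9 rose, with a median of 0.39, beside 10.1% of all genes tested that were higher. That count was 7 to 9 with each library left out in turn. In bulk samples, a change in how many cells hold a transcript and a change in its level per cell cannot be told apart.

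LPCAT1 (chromosome 5, 1456480 to 1523977, minus strand), which adds saturated fatty acids to lysophosphatidylcholine, passed in every comparison that involved a treatment and not between the lines. It read 55.93, 60.71 and 54.23 TPM in A549 DMSO and 58.32, 53.53 and 55.61 TPM in LB DMSO. These groups overlapped (log2 difference -0.03, 95% interval -0.16 to 0.1, adjusted p = 0.755). It read 63.84, 64.61 and 70.06 TPM with amiodarone and 99.43, 93.65 and 98.89 TPM with HPbCD added. Both steps were free of overlap.

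The amiodarone step of LPCAT1 was 0.24 ± 0.059 SE, 1.18-fold (adjusted p = 0.0261). It did not pass without LB DMSO replicate 2 (adjusted p = 0.0923), LB DMSO replicate 3 (0.0795), LB amiodarone replicate 2 (0.0544) or LB amiodarone replicate 3 (0.0949). The HPbCD step was larger, 0.55 ± 0.059, 1.46-fold (adjusted p = 0.000239), and stayed between 0.000143 and 0.00224 with each library left out in turn. Across both, LPCAT1 was 1.73-fold higher than in LB DMSO (0.79 ± 0.059, adjusted p = 2.11e-06).

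The gene most like LPCAT1 was IFIT5, a member of an interferon-induced family, both over the 12 libraries (Pearson r = 0.994) and over the 9 LB libraries (0.995). IFIT5 lay at 6.17 ± 0.24 TPM in A549 DMSO, 6.25 ± 0.182 in LB DMSO, 7.48 ± 0.435 with amiodarone and 10.8 ± 0.573 with HPbCD added. AVPI1 (0.976) and GABRA5 (0.974) came next over 12 libraries, and CEP72 (0.993) and RNF145 (0.991) over 9. These are the highest of 9791 correlations and carry no test.

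The surfactant genes, whose lipid LPCAT1 is known to supply, were set beside it. The list held 10 genes of surfactant and lamellar bodies, and 6 were tested. SFTPA1, SFTPA2, LAMP3 and SLC34A2 were too low to test, at no more than 0.57 TPM in any library. In LB DMSO over A549 DMSO 4 of the 6 rose. SFTPB, SFTPC and SFTPD averaged 0, 0.46 and 0.247 TPM in A549 DMSO and reached the 1 TPM filter only through LB libraries. A higher level in LB cells was thus a condition of testing them, and the count cannot be read against the 14.2% over all genes. Log2 differences were 8.67 for SFTPC, 7.95 for SFTPB, 7.92 for SFTPD and 3.98 for ABCA3, the lipid transporter of lamellar bodies. With A549 values so near 0, those of the SFTP genes depend on the 1 added to TPM. NAPSA (adjusted p = 0.562) and CTSH (adjusted p = 0.725) did not pass by limma. With amiodarone 2 were lower, SFTPB and ABCA3, beside 3.72% of all genes tested that were lower. This count was 1 without LB DMSO replicate 2 or 3 or LB amiodarone replicate 2 or 3, and 0 without LB DMSO replicate 1 or LB amiodarone replicate 1, and 1 gene was higher without A549 DMSO replicate 3. With HPbCD added SFTPB alone rose, beside 2.71% of all genes tested that were higher. That count was 0 without LB DMSO replicate 1, LB amiodarone replicate 1 or 3, or replicate 1 or 2 of amiodarone plus HPbCD. With both agents against vehicle CTSH alone passed, beside 17.9% of all genes tested. It lay at 39.6 ± 1.7 against 30.1 ± 0.85 TPM (adjusted p = 0.00157), and 1 gene was lower without LB DMSO replicate 2.

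LPCAT4 (chromosome 15, 34358618 to 34367278, minus strand), an acyltransferase of lysophospholipids, was level with LPCAT1 in the untreated cells. It read 61.51, 55.54 and 55.17 TPM in A549 DMSO and 60.01, 58.05 and 52.28 TPM in LB DMSO, with overlap (log2 difference -0.02, 95% interval -0.21 to 0.18). It read 44.89, 56.25 and 56.67 TPM with amiodarone and 41.55, 46.95 and 44.02 TPM with HPbCD added. Replicate 1 of LB amiodarone stood low, inside the range of the group with HPbCD. The HPbCD step was -0.24 ± 0.091 (adjusted p = 0.184), and without that library it was -0.35 and passed (adjusted p = 0.0436).

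Against LB DMSO, LPCAT4 with both agents fell by 0.35 ± 0.091 on the log2 scale (adjusted p = 0.0181). That call was lost without LB DMSO replicate 1 (adjusted p = 0.0729) or 2 (0.0607), or replicate 1 (0.0746) or 3 (0.0524) of amiodarone plus HPbCD. The ratio of LPCAT1 to LPCAT4 in TPM was 0.995 ± 0.0925 in A549 DMSO, 0.986 ± 0.0718 in LB DMSO, 1.27 ± 0.14 with amiodarone and 2.21 ± 0.201 with HPbCD added (SD, n = 3). The last group ran from 1.99 to 2.39 and the amiodarone group from 1.15 to 1.42. This ratio was not planned beforehand and is a description without a test. LPCAT1 alone also kept these groups apart, while LPCAT4 overlapped between them.

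**Figure D2:**
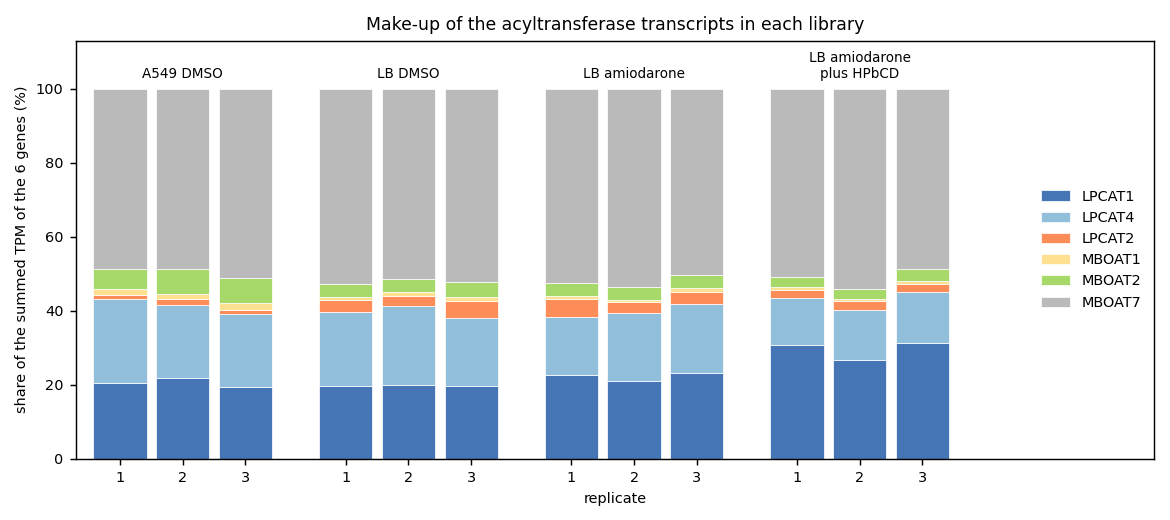
Share of the summed TPM of the 6 acyltransferases (vertical axis, percent) taken by each gene, with 1 stacked bar for each of the 12 libraries. The LPCAT1 share has a mean of 19.6% in LB DMSO and 29.5% with amiodarone plus HPbCD, the LPCAT4 share has 20.0% and 13.4%, and the mean share of MBOAT7 lies between 49.6 and 52.2% in the 4 groups. A rise of 1 gene lowers the shares of the others. The summed TPM averaged 284 in LB DMSO and 330 with amiodarone plus HPbCD, and LPCAT4 itself averaged 56.8 and 44.2 TPM.

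LPCAT2 (chromosome 16, 55508998 to 55586670, plus strand), known for making platelet-activating factor, had the widest span of the 10 genes, a ratio of 3.17 between its highest and lowest group means. It read 2.72, 4.42 and 3.1 TPM in A549 DMSO and 9.4, 7.36 and 13.34 TPM in LB DMSO. All LB DMSO libraries were higher (log2 difference 1.3 ± 0.21 SE, 2.47-fold, adjusted p = 0.000408). It read 13.56, 8.96 and 9.91 TPM with amiodarone and 7.18, 8.43 and 6.48 TPM with HPbCD added. The HPbCD libraries lay below every library with amiodarone alone, but the difference of -0.49 ± 0.21 did not pass (adjusted p = 0.242), and those for amiodarone (0.11, adjusted p = 0.803) and for both agents (-0.37, adjusted p = 0.246) did not either.

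MBOAT1 (chromosome 6, 20102145 to 20212399, minus strand), which works on lysophosphatidylserine and lysophosphatidylethanolamine, read 4.51, 4.03 and 5.53 TPM in A549 DMSO and 2.5, 2.45 and 2.96 TPM in LB DMSO. All LB DMSO values were lower (log2 difference -0.64 ± 0.15 SE, adjusted p = 0.00512). It read 2.17, 2.39 and 3.34 TPM with amiodarone and 2.04, 2.46 and 2.4 TPM with HPbCD added, overlapping vehicle (adjusted p between vehicle and both agents 0.561).

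MBOAT2 (chromosome 2, 8852690 to 9003813, minus strand), a related enzyme, read 15.38, 18.66 and 18.55 TPM in A549 DMSO and 10.21, 9.48 and 11.46 TPM in LB DMSO. The groups were apart (log2 difference -0.7 ± 0.1 SE, adjusted p = 0.000175). It read 10.57, 10.54 and 10.5 TPM with amiodarone and 9.21, 8.83 and 10.74 TPM with HPbCD added, again overlapping vehicle (adjusted p = 0.926 and 0.516).

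MBOAT7 (chromosome 19, 54173412 to 54189882, minus strand), which puts arachidonic acid on lysophosphatidylinositol, was the most abundant acyltransferase. It read 132.41, 136.89 and 143.49 TPM in A549 DMSO and 157.51, 139.73 and 148.41 TPM in LB DMSO. It read 148.68, 165.07 and 152.77 TPM with amiodarone and 164.83, 190.17 and 153.92 TPM with HPbCD added. Neighbouring groups overlapped, and no comparison passed. The nearest was both agents against vehicle (0.19, 95% interval 0.02 to 0.35, adjusted p = 0.107), which passed without replicate 3 of amiodarone plus HPbCD (0.25, adjusted p = 0.0499).

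**Figure D3:**
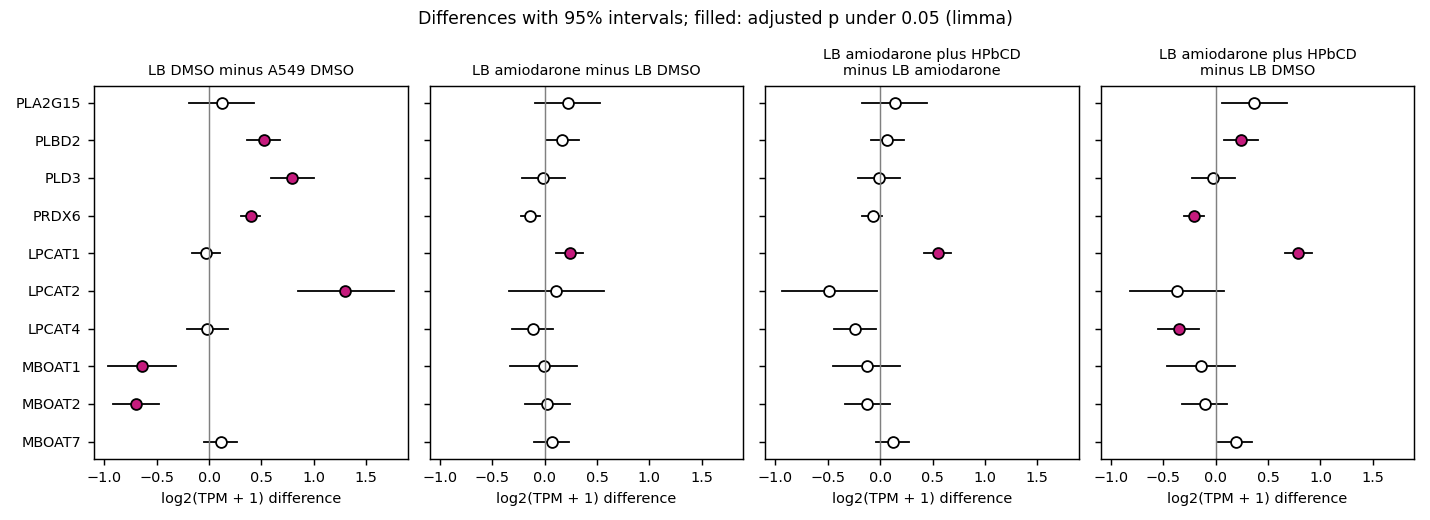
Log2 differences of the 10 genes on the log2(TPM + 1) scale (horizontal axis) with 95% intervals, in the 4 comparisons; filled points passed an adjusted p of 0.05. LPCAT1 is filled in the 3 comparisons with a treatment and not between the lines.

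The 3 comparisons that involve LB DMSO share its libraries, and those with HPbCD share theirs. The amiodarone and HPbCD steps share the LB amiodarone libraries with opposite sign, so a stray value there moves both. All values are therefore given side by side and not as repeats. Over 12 libraries PLBD2 and PLD3 correlated (Pearson r = 0.938), but over the 9 LB libraries r was 0.242. MBOAT1 and MBOAT2 went from 0.897 to 0.44. LPCAT1 and LPCAT4 kept a negative value, -0.799 over 12 and -0.774 over 9. These libraries share a line or treatment within groups and are not independent points, so no p is given.

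Of 11 relatives of the acyltransferases tested, 2 rose and 3 fell in LB DMSO. Of all genes tested, 14.2% were higher and 18.2% lower there. Among the relatives 1 rose without A549 DMSO replicate 1 or LB DMSO replicate 3. AGPAT3 fell from 28.1 ± 0.915 to 13.5 ± 0.837 TPM (adjusted p = 1.47e-06), whereas AGPAT1, which makes phosphatidic acid, rose from 37.4 to 53.8 TPM (adjusted p = 0.000219). With amiodarone TAZ, here the cardiolipin acyltransferase tafazzin, alone fell, beside 3.72% of all genes tested that were lower. That count was 0 without LB DMSO replicate 3 or LB amiodarone replicate 1 or 3. With HPbCD added limma called 0, beside 4.07% of all genes tested, with 1 higher and 1 lower at an unadjusted p under 0.05. There 1 fell without A549 DMSO replicate 2 or 3. With both agents against vehicle tafazzin alone passed, beside 17.9% of all genes tested. It fell from 37.0 ± 0.343 to 26.9 ± 2.32 TPM (adjusted p = 0.000631). LPCAT3, which adds polyunsaturated fatty acids and is named here after its values were seen, lay at 36.9 ± 4.08, 40 ± 2.31, 43.9 ± 0.796 and 35 ± 3.5 TPM in the 4 groups and did not pass (adjusted p = 0.0642 for HPbCD added).

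The acyltransferases use fatty acids activated to acyl-CoA. Synthetases (ACSL genes) make it and thioesterases (ACOT genes) split it again, and 3 of the first and 5 of the second were tested. Of these 8 genes, 1 of each kind rose in LB DMSO over A549 DMSO (ACSL1 and ACOT13), beside 14.2% of all genes tested. Without LB DMSO replicate 3, 1 was also lower. With amiodarone 5 rose and none fell, with a median of 0.45, namely the 3 synthetases and the thioesterases ACOT1 and ACOT13. Of all genes tested 4.9% were higher there. ACSL4, which prefers arachidonic acid, went from 14.8 ± 3.14 to 34.1 ± 3.21 TPM (adjusted p = 0.000122), and ACSL3, the long-chain synthetase of lipid droplets, from 71.6 ± 2.1 to 111 ± 10.3 TPM (adjusted p = 0.00133). The thioesterase ACOT1 went from 9.0 ± 0.54 to 13.8 ± 1.49 TPM (adjusted p = 0.00681). With HPbCD added limma called 0, beside 4.07% of all genes tested, with 1 higher and 2 lower at an unadjusted p under 0.05. There 1 rose without A549 DMSO replicate 2. Against vehicle the 3 synthetases and ACOT13 rose, beside 10.1% of all genes tested that were higher. ACSL4 lay at 33.6 ± 2.15 TPM (adjusted p = 6.55e-05). ACOT13 lay at 98.5 ± 2.56 against 63.7 ± 1.07 TPM (adjusted p = 0.00011).

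Other phospholipases A and B were mixed between the lines, where 1 of 16 tested rose and 3 fell. Of all genes tested, 14.2% were higher and 18.2% lower there. The rises were 2 without A549 DMSO replicate 3 or LB DMSO replicate 2. PLA2G16, an acyltransferase and phospholipase also called PLAAT3, fell from 118 ± 10.4 to 62.8 ± 4.88 TPM (adjusted p = 8.79e-07). With amiodarone 3 rose and none fell, beside 4.9% of all genes tested that were higher and 3.72% lower. PLA2G16 rose to 92.6 ± 1.39 TPM (adjusted p = 0.000294). With HPbCD added ABHD3 alone rose, beside 2.71% of all genes tested that were higher. That count was 0 when any 1 of LB DMSO replicates 1 to 3 or LB amiodarone replicates 2 and 3 was left out. It was also 0 without replicate 1 or 3 of amiodarone plus HPbCD. Against vehicle 4 rose, beside 10.1% of all genes tested that were higher. ABHD3, which cuts phosphatidylcholines with medium-chain fatty acids, went from 12.9 ± 0.463 to 25.9 ± 3.18 TPM (adjusted p = 4.11e-05).

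Genes of lysophospholipid and head group turnover, 12 of 14 tested, had 4 higher and 2 lower in LB DMSO. Of all genes tested, 14.2% were higher and 18.2% lower in that comparison. GPCPD1, which breaks down glycerophosphocholine, rose from 17.4 ± 2.72 to 33.4 ± 3.21 TPM (adjusted p = 0.000192). With amiodarone limma called 0, beside 8.62% of all genes tested, with 1 higher and 1 lower at an unadjusted p under 0.05. With HPbCD added PLD6 alone rose, beside 2.71% of all genes tested that were higher. That count was 0 without any 1 of 9 libraries, taken singly. These were A549 DMSO replicate 1, LB DMSO replicates 1 and 3, and all 3 of each group compared. Against vehicle 2 rose and 1 fell, beside 10.1% of all genes tested that were higher and 7.81% lower. The rises were 1 and the falls 0 without LB DMSO replicate 1 or 2 or replicate 1 or 3 of amiodarone plus HPbCD, and the falls were also 0 without its replicate 2. PLD6, a mitochondrial phospholipase D, went from 5.05 ± 0.556 to 8.89 ± 0.623 TPM (adjusted p = 0.000549).

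**Figure D4:**
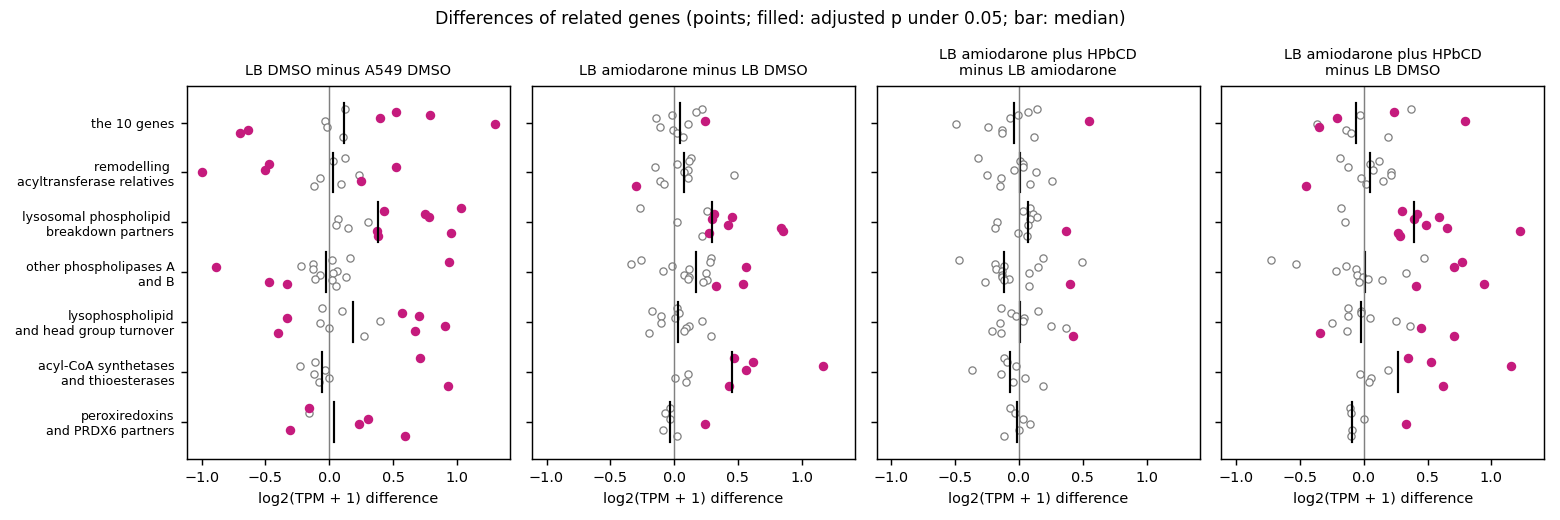
Log2(TPM + 1) differences (horizontal axis) of the 10 genes and of 6 lists of related genes in the 4 comparisons, with a point for each tested gene, filled where the adjusted p was under 0.05, and a bar at each list's median. With amiodarone the lysosomal partners have 7 of 11 points filled. The acyl-CoA synthetases and thioesterases, plotted together, have 5 of 8, and the 10 genes have 1. All these filled points lie to the right of 0. Of all genes tested 8.62% passed there, 4.9% upward and 3.72% downward. The surfactant list is not plotted, and 2 of its 6 tested genes were lower. The lists were chosen with earlier results of these data known.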

How the data were processed

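mRNA of 12 libraries was read as 100-bp pairs from a stranded kit, per the labels' protocols. The authors deposited 1 table of TPM, a length-adjusted share of transcripts, per gene. STAR 2.7.3a, RSEM 1.3.1 and GRCh38 are named in the submitters' processing notes, with no annotation release. TPM keeps no read depth, so no count test was run. Groups came from the labels. log2(TPM + 1) was tested for 13968 genes averaging 1 TPM or more, with limma 3.58.1 in R 4.3.3, using all 4 groups of 3, a mean-variance trend and 8 residual degrees of freedom. P-values were adjusted within each of 4 comparisons by Benjamini-Hochberg, with a threshold of 0.05. The script was tested on simulated data with 50 genes changed at each size. Over the 4 comparisons, 22 to 32% of 1.25-fold and 60 to 64% of 1.5-fold changes passed. Between 2.76 and 8.11% of calls were false. Fewer genes were changed in the simulation than passed in any of the 4 comparisons. The adjusted threshold depends on that share, so the rates in these data may differ. Small differences that did not pass may therefore have been missed.

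All 10 genes were described whatever their values. From each of 7 pathway lists (acyltransferase relatives, lysosomal partners, other phospholipases, lysophospholipid and head group turnover, acyl-CoA synthetases and thioesterases, peroxiredoxins with partners, surfactant) up to 4 passing genes with the largest differences could be named per comparison, and for PLA2G15 and LPCAT1 the 3 genes of highest Pearson r. Markers of 5 cell types were summed. Some genes that this rule would name are not reported here. The genes and lists were chosen with earlier results of these data known. Positions are from GENCODE 29 and promoter sequences from RefSeq, both GRCh38. Alternatives were the pseudocount, the filter, scaling, the variance model, the samples fitted, a replicate block and leaving out each library.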

Additional observations from a re-analysis of the deposited data

How the results depend on the processing

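Of 916 values of the 10 genes under other settings, none changed direction among those called. Of the 436 from 11 settings that kept all libraries, 432 kept their side of the threshold, and of the 480 with a library left out, 462 did. The count of the 10 genes called between the lines was 6 with each library left out and in the other settings, except 5 under a minimum mean of 5 TPM, which left MBOAT1 untested. With amiodarone it was 0 to 1 with a library left out and 0 in limma without the trend, where LPCAT1 had an adjusted p of 0.0538. With HPbCD added it was 1 to 2, and with both agents against vehicle 2 to 4. PLBD2 with both agents was also not past with no filter (adjusted p = 0.0671), without the trend (0.0529) or with the replicate block (0.0565). The replicate block called 4581, 1198, 606 and 2558 genes in the 4 comparisons, beside 4525, 1204, 568 and 2495, and changed no other call among the 10 genes. The labels do not say that replicate numbers pair the libraries, which share only a number. Libraries of different groups correlated at 0.9427 to 0.9858 as they stood. To look for pairing, each gene's group mean was subtracted first, and what remained was correlated between groups. These values ran from -0.0649 to 0.212 over 18 same-numbered pairs, 2 of them above 0.1. Over 36 pairs of different numbers they ran from -0.128 to 0.0855. On this measure 8 of 12 libraries correlated best with their own number, a hint of pairing from the data only. Over all genes, the count with amiodarone was 630 to 745 without LB DMSO replicate 1, 2 or 3 or LB amiodarone replicate 2 or 3. With HPbCD added it was 282 to 341 without any 1 of the libraries compared. The causes were not tested. Read depth is unknown, so its limit on the low genes MBOAT1 and LPCAT2 cannot be given.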
